A study of Homo sapiens with 8 samples.

Results

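The nucleic acid sensors of the cell and the adaptor, kinase and transcription factor they feed were examined as a group of 10 genes, each found by its symbol among the 58870 gene rows of the deposited table. They are the RNA helicases DDX58 (RIG-I, listed as RIGI in RefSeq), IFIH1 (MDA5) and DHX58 (LGP2), the endosomal receptor TLR3, the DNA-binding proteins AIM2 and IFI16, the kinase EIF2AK2 (PKR), the adaptor MAVS, the kinase TBK1 and the factor IRF3. The study sequenced RNA of Panc 10.05 cells, a long-established line from a human pancreatic ductal adenocarcinoma, in 8 libraries. Of these, 4 libraries were labelled control and 4 as carrying an ELAPOR1 transgene, that is, as overexpressing ELAPOR1, and no treatment, time or batch is given for either group. The labels do not say how the transgene was introduced, which promoter drives it, whether the control cells carry an empty vector, whether the cells are 1 clone, or whether the libraries came from separate cultures. P-values therefore measure the spread between these libraries, which may be technical, and every result is from 1 cell line.

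Cells hold separate sensors for foreign or misplaced nucleic acid. RIG-I and MDA5 detect double-stranded RNA in the cytosol and signal through MAVS on mitochondria, LGP2 tunes them, and TLR3 detects RNA inside endosomes. Both routes converge on TBK1, which phosphorylates IRF3 so that it switches on interferon genes. AIM2 assembles an inflammasome on cytosolic DNA, IFI16 is a related DNA-binding protein, and PKR halts translation when it binds double-stranded RNA. Several of the sensors are textbook interferon-stimulated genes, transcribed when a cell receives an interferon signal, whereas MAVS, TBK1 and IRF3 are known mainly for regulation at the protein level.

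Library totals ran from 13765509 to 18128757 counts. ELAPOR1 itself (listed as KIAA1324) had 1 to 4 counts in each control library and 5910 to 7368 in each ELAPOR1 library, so the libraries matched their labels. Epithelial markers were abundant in all libraries: KRT8 stood at 5360 ± 237 CPM in control and 4790 ± 82.6 CPM in ELAPOR1 libraries, and EPCAM at 634 ± 10.6 and 623 ± 16.2 CPM (SD, n = 4 each). They did not change in 1 direction. KRT8, KRT18 and MUC1 were called lower (log2 fold change -0.16, -0.36 and -0.22). KRT7, KRT19 and CDH1 were called higher (0.31, 0.25 and 0.11), and EPCAM was not called. CPM are counts per 1e6 after TMM scaling of the libraries. Of 7 leukocyte markers, a class of cells rich in these sensors, CD3E and MS4A1 had no count in any library and 4 of the 7 stayed under 1 CPM in all of them. The summed leukocyte level was 90.6 to 97.1 CPM in control and 81.9 to 88.9 CPM in ELAPOR1 libraries, most of it CD68 (84.4 ± 2.49 and 75.7 ± 2.61 CPM), a lysosomal protein of many cell types. The myeloid marker CSF1R stood at 7.21 ± 0.794 and 8.12 ± 0.435 CPM and was not called. ITGAX stood at 1.46 ± 0.471 and 0.855 ± 0.215 CPM and was called lower (edgeR adjusted p = 0.0437).

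Sequence around the start sites is shown first. A pair of GAAA half-sites with 2 bases of any kind between them, the core of the interferon-stimulated response element to which interferon regulatory factors bind, was searched on both strands from 250 bases before to 50 bases after the RefSeq starts (GRCh38.p14). RefSeq windows were matched for 8 of the 10 members, and DHX58 and IRF3 were not searched. The motif was found for IFIH1, AIM2, EIF2AK2 and TLR3, that is 4 of 8 members, against 4.38% of the 27305 genes with a window (3.57% of all 35116 windows of this length). In the same search 4 of 5 matched genes of the OAS and IFIT families held it. Both sets hold textbook interferon-stimulated genes, so these shares are not independent of how the genes were chosen. The stretches below are written 5′ to 3′ on the strand of the gene, with matches in capitals and with positions counted from the start (1 is the first transcribed base and -1 the base before it).
IFIH1, chr2:162318808-162318863, minus strand, positions -179 to -124: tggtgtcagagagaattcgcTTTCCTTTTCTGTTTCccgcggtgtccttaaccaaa
IFIH1, chr2:162318685-162318725, minus strand, positions -41 to -1: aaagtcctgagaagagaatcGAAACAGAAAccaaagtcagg
AIM2, chr1:159076927-159076976, minus strand, positions -210 to -161: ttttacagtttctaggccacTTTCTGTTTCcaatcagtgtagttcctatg
EIF2AK2, chr2:37156977-37157006, minus strand, positions -26 to 4: gggaaggcggagtccaagggGAAAACGAAA
TLR3, chr4:186069132-186069161, plus strand, positions -24 to 6: cattttttttcaagctttacTTTCACTTTC

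IFIH1 held 3 matches, of which those at -159 and -153 overlap each other and read on the opposite strand, while the match at -21 reads along the gene. The AIM2 window lies inside the annotated gene, which extends to position 159147096 of chromosome 1, so it describes an internal start. In EIF2AK2 and TLR3 the match spans the RefSeq start itself. The annotated genes of IFIH1, EIF2AK2 and TLR3 also reach past their RefSeq starts, by far less than that of AIM2. For DDX58, IFI16, MAVS and TBK1 no match was found in these windows. A match describes letters and does not show binding.

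In cells with the ELAPOR1 transgene, 6 of the 10 members were higher and none was lower. AIM2 was 2.35-fold, IFIH1 1.69-fold, TLR3 1.47-fold, DDX58 1.41-fold, EIF2AK2 1.25-fold and IFI16 1.15-fold higher. The adaptor MAVS, the kinase TBK1 and the factor IRF3 were not called, at 0.989-fold, 0.979-fold and 1.04-fold of their control level, and DHX58 was not called either (log2 fold change 0.38). The calls are at an edgeR quasi-likelihood adjusted p-value under 0.05 (Benjamini-Hochberg over 13860 tested genes). All 10 members passed the filter on low counts. Across all tested genes 44.7% were called, 22.6% higher and 22.1% lower, so that a share of 6 in 10 is not far from the background while a share of 6 in 10 in the higher direction is above it. Control and ELAPOR1 libraries were fully separated in CPM for these 6 members, as they were for 39.2% of all tested genes. The median log2 fold change was 0.35 over the members and 0.00087 over all tested genes. The summed counts of the members made up 0.069 to 0.0725% of a control library and 0.0807 to 0.0851% of an ELAPOR1 library. In RNA from whole cultures, more cells expressing a gene and more RNA per cell cannot be told apart.

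**Figure D1:**
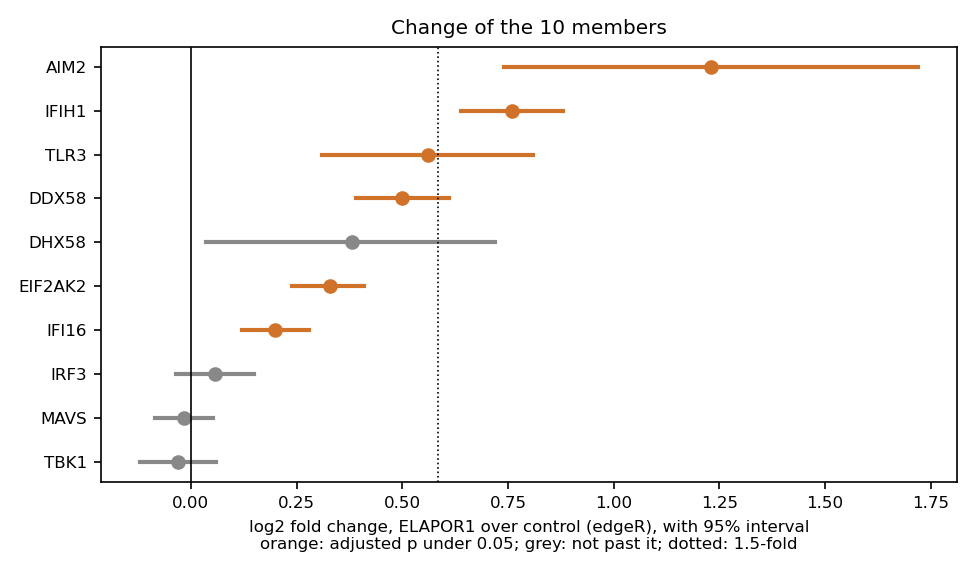
Log2 fold change of each member in ELAPOR1 over control libraries (points) with its 95% interval (lines), from edgeR, in order of size; orange marks an adjusted p-value under 0.05, grey marks none and the dotted line marks a 1.5-fold change. AIM2 and IFIH1 lie farthest right at 1.23 and 0.76, while IRF3, MAVS and TBK1 straddle 0.

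Among the helicases that detect cytosolic RNA, IFIH1 (ENSG00000115267.7, chromosome 2, 162267079 to 162318703, GRCh38) changed most. Control libraries held 31.1, 29.9, 32.5 and 26.9 CPM and ELAPOR1 libraries 49.1, 49.8, 52.2 and 53.1 CPM. Every ELAPOR1 library was above every control library, and the gap between the groups was wider than the range within either. This is a log2 fold change of 0.76 with an SE of 0.058 (edgeR adjusted p = 7.0e-13). A change of this size or larger was seen in 4.92% of tested genes.

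DDX58 (ENSG00000107201.10, chromosome 9, 32455705 to 32526324) encodes RIG-I, which recognises RNA with a triphosphate end. It stood at 54.4, 49.1, 54.7 and 55.1 CPM in control and at 74.1, 76.1, 83.4 and 68.8 CPM in ELAPOR1 libraries. The groups did not overlap, with the second control library lowest and the third ELAPOR1 library highest. On the log2 scale the rise was 0.50 with an SE of 0.0521 (edgeR adjusted p = 1.6e-09).

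DHX58 (ENSG00000108771.13, chromosome 17, 42101404 to 42112733) encodes LGP2, which lacks the signalling domains of the other helicases. Its level was low, with 46 to 81 counts in control and 66 to 88 in ELAPOR1 libraries. It stood at 3.55, 2.71, 4.49 and 4.94 CPM in control and at 4.85, 5.85, 4.75 and 4.90 CPM in ELAPOR1 libraries. The fourth control library lay above 3 of the ELAPOR1 libraries, so the groups overlapped. The log2 fold change of 0.38 (95% interval 0.037 to 0.72) was not called (edgeR adjusted p = 0.0654). Without the fourth control library it was 0.50 and was called (edgeR adjusted p = 0.0191). Over the alternatives that tested for any change, the adjusted p-value ran from 0.0191 to 0.263. DHX58 was also not called in a test against a 1.5-fold change.

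The adaptor of these helicases was not called. MAVS (ENSG00000088888.18, chromosome 20, 3846799 to 3876123) stood at 198, 197, 195 and 185 CPM in control and at 183, 188, 198 and 198 CPM in ELAPOR1 libraries, and the groups overlapped. Its log2 fold change of -0.016 (edgeR adjusted p = 0.74) had an SE of 0.034 and a 95% interval from 0.943-fold to 1.04-fold.

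The endosomal sensor TLR3 (ENSG00000164342.12, chromosome 4, 186069152 to 186088069) was measured from 85 to 146 counts per library. Control libraries held 5.21, 6.02, 5.09 and 5.97 CPM and ELAPOR1 libraries 8.96, 8.45, 6.98 and 8.36 CPM. The third ELAPOR1 library was the lowest of its group and still above all controls. TLR3 thus rose by 0.56 on the log2 scale, with an SE of 0.124 (edgeR adjusted p = 3.8e-04).

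**Figure D2:**
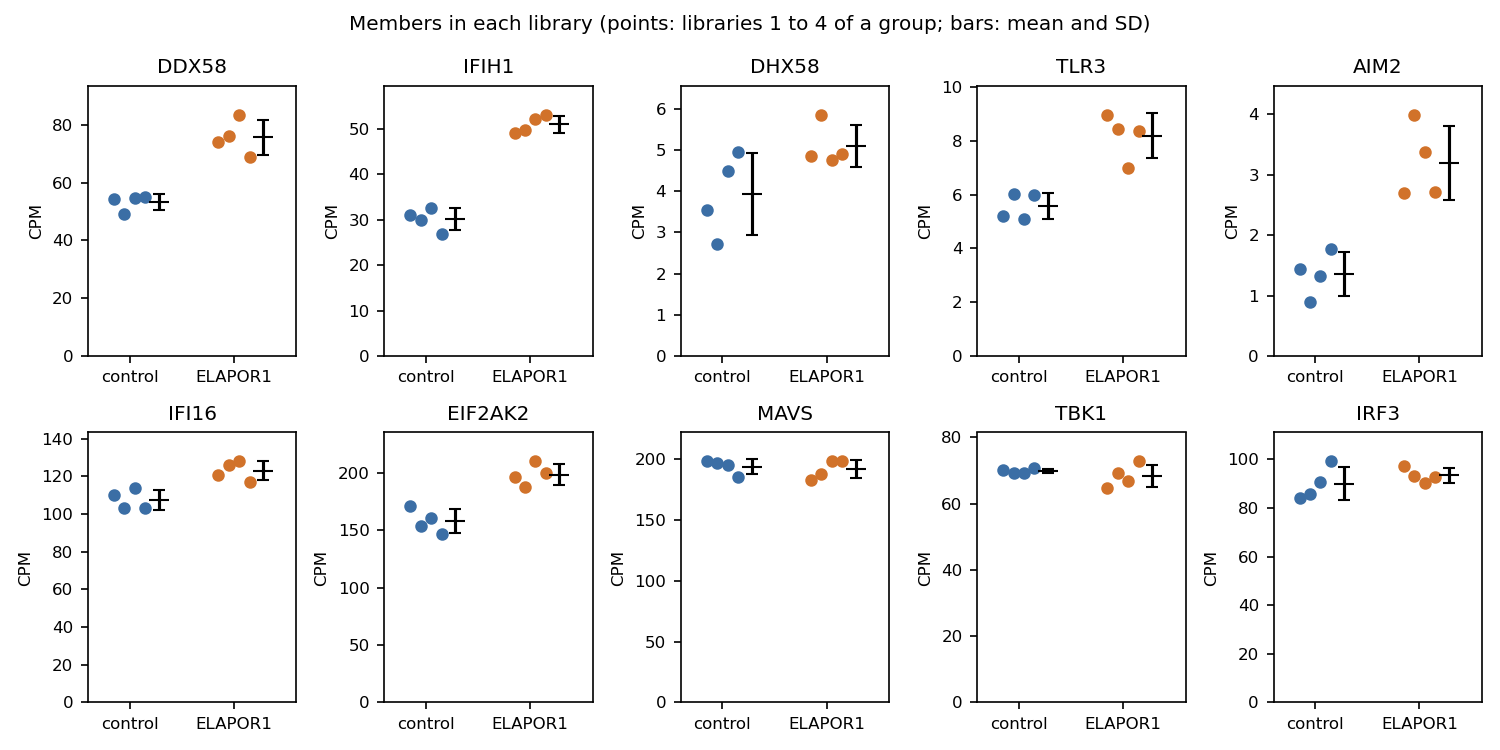
CPM of each member in each library, with control in blue and ELAPOR1 in orange; each point is 1 library, in label order from 1 to 4 within a group, and the bars are mean and SD. For DDX58, IFIH1, TLR3, AIM2, IFI16 and EIF2AK2 all ELAPOR1 points lie above all control points, and for DHX58, MAVS, TBK1 and IRF3 they overlap.

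The PYHIN proteins AIM2 and IFI16, which both bind DNA, lie side by side on chromosome 1 and differed in level and in change. AIM2 (ENSG00000163568.15, 159062484 to 159147096) had only 15 to 29 counts in control and 44 to 60 in ELAPOR1 libraries. It stood at 1.44, 0.885, 1.32 and 1.77 CPM in control and at 2.70, 3.99, 3.38 and 2.71 CPM in ELAPOR1 libraries, with no overlap. Its rise of 1.23 on the log2 scale (95% interval 0.74 to 1.72, SE 0.239, edgeR adjusted p = 7.1e-05) was the largest and the least precise among the members.

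IFI16 (ENSG00000163565.18, 158999968 to 159055155) stood far higher. Control libraries held 110, 103, 114 and 103 CPM and ELAPOR1 libraries 121, 126, 128 and 117 CPM. The groups did not overlap, although the fourth ELAPOR1 library came close to the third control library. Its log2 fold change of 0.20 with an SE of 0.0397 (edgeR adjusted p = 1.2e-04) was the smallest of the called members, and 45.4% of tested genes changed by as much or more.

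EIF2AK2 (ENSG00000055332.18, chromosome 2, 37099210 to 37157065) stood at 171, 154, 161 and 147 CPM in control and at 196, 188, 210 and 200 CPM in ELAPOR1 libraries. The groups did not overlap, and the rise was 0.33 on the log2 scale with an SE of 0.0404 (edgeR adjusted p = 1.6e-07). The gene overlaps GPATCH11 on the other strand (mean 26.0 CPM), and the use of strand in counting is not given in the sources used here. Whether some of its reads belong to that gene is therefore not known, although its expected counts were whole numbers in every library.

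TBK1 (ENSG00000183735.10, chromosome 12, 64451880 to 64502108) stood at 70.1, 69.3, 69.3 and 70.7 CPM in control and at 64.8, 69.1, 66.8 and 72.7 CPM in ELAPOR1 libraries. The control libraries were close together and lay within the range of the ELAPOR1 libraries. Its log2 fold change was -0.031 (edgeR adjusted p = 0.609, 95% interval 0.92-fold to 1.04-fold). IRF3 (ENSG00000126456.16, chromosome 19, 49659569 to 49665875) stood at 84.1, 85.9, 90.6 and 99.2 CPM in control and at 97.5, 93.3, 90.3 and 92.8 CPM in ELAPOR1 libraries. The fourth control library was the highest of all 8. The log2 fold change of IRF3 was 0.057 (edgeR adjusted p = 0.319, 95% interval 0.976-fold to 1.11-fold), and without that library it was 0.11 and was called (edgeR adjusted p = 0.0343). IRF3 overlaps BCL2L12 on the other strand (mean 38.1 CPM), with the same limit on strand, and its expected counts were also whole numbers in every library.

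A test against a 1.5-fold change kept only IFIH1 among the members (edgeR glmTreat adjusted p = 0.0323), where 1.55% of all tested genes were called. AIM2 missed it with an adjusted p-value of 0.0686.

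Whether members changed by different amounts was tested on 5 ratios of counts within a library, which do not depend on scaling between libraries. The pairs were chosen with earlier results of these data known, and the adjusted p-values do not cover that choice. IFIH1 stood at 0.157, 0.152, 0.167 and 0.145 counts per MAVS count in control libraries and at 0.268, 0.265, 0.263 and 0.269 in ELAPOR1 libraries. The ELAPOR1 libraries were nearly identical and far above the controls, with a difference of 0.78 on the log2 scale (two-sided exact permutation p = 0.0286, adjusted over the 5 ratios 0.0476, 4 against 4 libraries, the smallest raw p they can give). Cells with the transgene thus held more MDA5 message per message of its adaptor.

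DDX58 to IFIH1 fell from 1.77 in control to 1.48 in ELAPOR1 libraries (geometric means of the ratio), a difference of -0.26 on the log2 scale (exact permutation p = 0.0286, adjusted 0.0476). IFIH1 therefore rose more than DDX58, with no overlap between groups. Without the fourth control library the difference was -0.19 and without the fourth ELAPOR1 library -0.20, both with an exact permutation p of 0.0571. AIM2 to IFI16 rose from 0.0125 to 0.0259, a difference of 1.05 (exact permutation p = 0.0286, adjusted 0.0476). It missed the threshold (exact permutation p = 0.0571) without the second, the third or the fourth ELAPOR1 library, at differences of 0.95, 1.03 and 1.10. For both pairs the groups still did not overlap in these cases. With groups of unequal size, another split of the libraries can differ by at least as much, which raises this p-value.

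DHX58 to IFIH1 differed by -0.36 on the log2 scale (exact permutation p = 0.257, adjusted 0.286) and IRF3 to TBK1 by 0.091 (exact permutation p = 0.286, adjusted 0.286). Both pairs overlapped between the groups, so no difference in their change was detectable with 4 libraries a group.

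**Figure D3:**
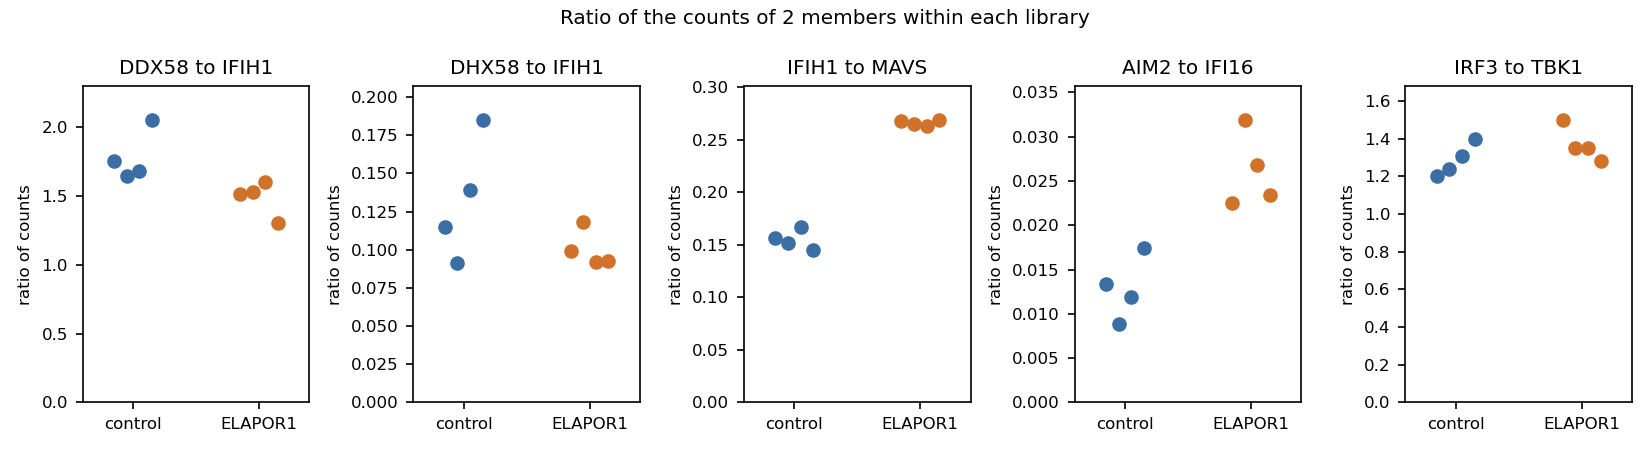
Ratio of the counts of the named pairs of members within each library (points, control blue and ELAPOR1 orange, linear axes from 0). IFIH1 to MAVS separates the groups most clearly, from 0.145 to 0.167 in control and from 0.263 to 0.269 in ELAPOR1 libraries, while DHX58 to IFIH1 and IRF3 to TBK1 overlap.

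Levels were compared between members per kilobase of annotated exon, since longer transcripts collect more counts. The length takes in the exons of all annotated transcripts of a gene. Which transcripts were expressed was not examined, so the order is approximate and the SD covers only the spread between libraries. In control libraries IRF3 was highest at 23.7 ± 1.78 CPM per kilobase, followed by IFI16 at 20.3 ± 0.991, MAVS at 16.5 ± 0.51, EIF2AK2 at 14.7 ± 0.951, TBK1 at 14.7 ± 0.14 and DDX58 at 12.3 ± 0.652 (SD, n = 4 each). IFIH1 stood at 5.89 ± 0.467 CPM per kilobase, below DDX58 in 4 of 4 control libraries. DHX58 at 1.02 ± 0.258, TLR3 at 0.829 ± 0.0729 and AIM2 at 0.674 ± 0.182 CPM per kilobase formed a low tier.

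Some neighbours in this order could not be separated. EIF2AK2 was above TBK1 in 2 of 4 control libraries, and DHX58 above TLR3 in 3 of 4. In ELAPOR1 libraries the middle of the order differed: EIF2AK2 at 18.4 ± 0.852 and DDX58 at 17.4 ± 1.38 CPM per kilobase stood beside MAVS at 16.3 ± 0.635, while AIM2 at 1.59 ± 0.308 stood beside DHX58 at 1.32 ± 0.134 and TLR3 at 1.22 ± 0.126. IFIH1, at 9.99 ± 0.372 CPM per kilobase, stood between these groups. Some neighbours changed places: MAVS was above EIF2AK2 in 4 of 4 control and in 0 of 4 ELAPOR1 libraries. The same counts held for TBK1 above DDX58 and for TLR3 above AIM2.

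The surrounding pathway was described with 8 lists holding 80 further genes, of which 60 were expressed highly enough to be tested. Of these, 31 were called, 17 higher and 14 lower (51.7%, against 44.7% of all tested genes), with a median log2 fold change of 0.073. The pathway as a whole therefore did not move in 1 direction, and its branches are given in turn. Values with ± are mean and SD of the 4 libraries of a group.

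Regulators of the RIG-I-like receptors and of their RNA ligands were called higher in 6 and lower in 2 of 15 genes (median log2 fold change 0.12). The share called was 53.3%, against 44.7% of all tested genes. TNFAIP3 (A20), an NF-kappaB target that restrains this and other inflammatory signalling, rose most, from 6.59 ± 0.872 to 18.3 ± 0.725 CPM (log2 fold change 1.47, edgeR adjusted p = 2.2e-14). ADAR, which edits double-stranded RNA so that MDA5 ignores it, rose from 316 ± 12.1 to 399 ± 7.41 CPM (0.34, edgeR adjusted p = 4.6e-11). PCBP2, which promotes the degradation of MAVS, fell from 769 ± 10.2 to 644 ± 8.12 CPM (-0.26, edgeR adjusted p = 7.7e-10). Its expected counts were not whole numbers in any library, and how its reads were divided was not examined. TRIM25, a ubiquitin ligase for RIG-I, was not called (0.064, edgeR adjusted p = 0.111).

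In the endosomal Toll-like receptor branch, TLR7 and TLR9 had no count in any library, where 3 counts would correspond to 0.165 to 0.218 CPM, and TLR8 had 1 count in all. TLR3 was thus the only nucleic acid receptor of this family that could be measured. Its adaptor TICAM1 (TRIF) stood at 58.4 ± 0.288 and 61.0 ± 3.37 CPM and was not called (log2 fold change 0.063, edgeR adjusted p = 0.29). MYD88, the adaptor of the other receptors, rose from 34.5 ± 1.31 to 49.5 ± 1.98 CPM (0.52, edgeR adjusted p = 7.2e-10), and UNC93B1, which carries these receptors to endosomes, fell by 0.19 on the log2 scale (edgeR adjusted p = 2.34e-03). Of 7 tested genes of this branch, 4 were called higher and 1 lower (71.4% called, against 44.7% of all tested genes).

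Among the partners of TBK1, none of 6 tested genes was called higher and 2 were lower (median log2 fold change -0.028), TRAF2 at -0.24 (edgeR adjusted p = 2.7e-04) and OPTN at -0.12 (adjusted p = 0.0111). The share called was 33.3%, under the 44.7% of all tested genes. IKBKE, the interferon-induced relative of TBK1, stood at 10.6 ± 1.04 and 12.4 ± 0.875 CPM (0.23, edgeR adjusted p = 0.0545), and TRAF3 was at 0.057 (adjusted p = 0.402). IKBKE was called higher with total count scaling (0.25, edgeR adjusted p = 0.0357) and without the first control (0.0449), the third control (0.0487) or the second ELAPOR1 library (0.0419). Over its alternatives that tested for any change, the adjusted p-value ran from 0.0357 to 0.203. The test against a 1.5-fold change did not call IKBKE.

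On the side of cytosolic DNA, the enzyme CGAS stood at 88.3 ± 3.40 CPM in control and 84.5 ± 3.26 CPM in ELAPOR1 libraries and was not called (log2 fold change -0.064, edgeR adjusted p = 0.222). Its partner STING1, which relays the signal of CGAS to TBK1, was lower: control libraries held 63.9, 71.3, 70.8 and 74.4 CPM and ELAPOR1 libraries 59.4, 57.5, 57.2 and 56.4 CPM. The groups did not overlap, and the log2 fold change was -0.28 (edgeR adjusted p = 9.2e-06). SAMHD1, which breaks down nucleotides, rose from 31.6 ± 2.32 to 51.2 ± 3.56 CPM (0.69, edgeR adjusted p = 1.2e-11). The DNA exonuclease TREX1 changed from 4.35 ± 0.697 to 2.89 ± 0.715 CPM (-0.59, edgeR adjusted p = 0.0115), and was not called without the second ELAPOR1 library (-0.43, adjusted p = 0.064). Its expected counts were not whole numbers in any library, and how its reads were divided was not examined. The Z-form nucleic acid sensor ZBP1 was below the filter, with 0 to 2 counts in control and 2 to 6 in ELAPOR1 libraries. Of 9 tested genes, 1 was called higher and 2 lower (33.3% called, under the 44.7% of all tested genes).

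Of the genes that carry an inflammasome signal downstream of or beside AIM2, 7 were tested. Of these, 5 were called lower and none higher (median log2 fold change -0.43, where 22.1% of all tested genes were called lower). IL18, the cytokine released by this route, stood at 79.7, 80.2, 83.8 and 83.0 CPM in control and at 50.5, 48.6, 49.5 and 48.3 CPM in ELAPOR1 libraries, a log2 fold change of -0.73 (edgeR adjusted p = 1.7e-15). CASP1, the protease that AIM2 activates, was low in both groups, at 1.09 ± 0.0897 and 0.916 ± 0.193 CPM (-0.23, edgeR adjusted p = 0.575). PYCARD (ASC), the adaptor between them, had 1 to 8 counts in control and 2 to 9 in ELAPOR1 libraries and was not tested.

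**Figure D4:**
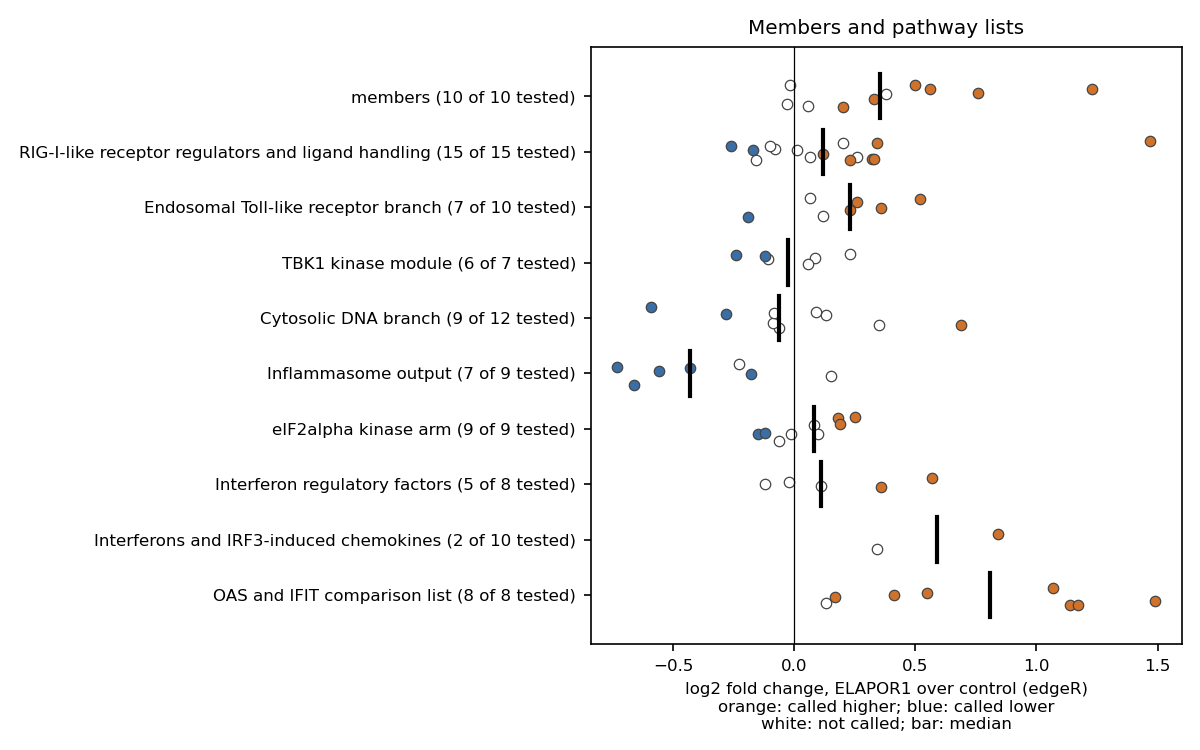
Log2 fold change in ELAPOR1 over control libraries (edgeR) of the tested genes among the members and in each pathway list, with 1 point per gene, orange where called higher, blue where called lower and white where not called; black bars are medians. The inflammasome list lies mostly left of 0 with a median of -0.43, and the OAS and IFIT list right of 0 with a median of 0.81.

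Around PKR, its substrate EIF2S1 (eIF2alpha) rose from 204 ± 3.13 to 233 ± 3.75 CPM (log2 fold change 0.19, edgeR adjusted p = 3.3e-06) and its inhibitor DNAJC3 by 0.25 (adjusted p = 1.3e-04). PPP1R15A (GADD34), which reverses the phosphorylation that PKR makes, fell by 0.15 on the log2 scale (edgeR adjusted p = 1.2e-04). The PKR activator PRKRA stood at 44.9 ± 1.44 and 48.2 ± 0.956 CPM and was not called (0.10, edgeR adjusted p = 0.0963). Of 9 genes in this arm, 3 were called higher and 2 lower (55.6% called, against 44.7% of all tested genes).

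Among the relatives of IRF3, 2 of 5 tested factors were called, both higher (40.0% called, under the 44.7% of all tested genes). IRF9, a factor of the interferon response, stood at 19.2, 18.2, 21.2 and 22.3 CPM in control and at 30.9, 31.7, 29.0 and 28.7 CPM in ELAPOR1 libraries (log2 fold change 0.57, edgeR adjusted p = 3.3e-08). The expected counts of IRF9 were not whole numbers in any library, and how its reads were divided was not examined. IRF1 stood at 30.7, 32.4, 34.8 and 33.1 CPM and at 43.5, 42.0, 41.0 and 41.2 CPM (0.36, edgeR adjusted p = 2.6e-06). For both factors every ELAPOR1 library was above every control library. IRF7, which amplifies interferon production in many cells, had 1 count in all 8 libraries together.

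Most of the interferon genes listed had few or no counts. IFNB1 had 0, 1, 1 and 0 counts in control and 0, 1, 1 and 2 in ELAPOR1 libraries, and IFNL1 had 0, 1, 3 and 0 against 5, 1, 0 and 1, so a difference was not detectable at this depth. CXCL10 had 2, 0, 0 and 0 counts in control and 13, 5, 1 and 3 in ELAPOR1 libraries, and CXCL11, a related chemokine named here after its values were seen, had 4, 2, 2 and 4 against 11, 8, 19 and 10. Both were below the filter and were not tested, and the groups overlapped for CXCL10 but not for CXCL11. CCL5 stood at 2.30 ± 0.213 and 2.91 ± 0.44 CPM and was not called (log2 fold change 0.34, edgeR adjusted p = 0.178). Of the 7 interferon genes listed, only IFNE, a type I interferon, could be tested, with 33 to 52 counts in control and 55 to 92 in ELAPOR1 libraries. It rose from 2.71 ± 0.494 to 4.91 ± 1.21 CPM (0.84, edgeR adjusted p = 5.1e-04).

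The OAS and IFIT families, classic interferon-stimulated genes, are the closest point of comparison. Of 8 genes 7 were called and all 7 were higher, where 22.6% of all tested genes were called higher. The median over the list was 0.81 on the log2 scale, against 0.35 for the members. OAS2 was at 1.49 (edgeR adjusted p = 9.2e-15). Whether this list differs from the members was not tested.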

How the data were processed

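RNA was extracted with TRIzol and sequenced on an Illumina NextSeq, per the labels' protocols. The authors deposited RSEM expected counts per gene, unscaled, of which 15% of nonzero values were not whole. The submitters' processing notes name cutadapt, STAR, RSEM, DESeq2 and hg38, without versions. Annotation release and strand setting are not given in the sources used here. Of 58870 identifiers, 58597 were found in GENCODE 29 without their version number (GRCh38), which gave coordinates and exon lengths.

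Rounded counts were filtered with filterByExpr and scaled by TMM before testing in edgeR 4.0.16 under R 4.3.3 (robust glmQLFit and glmQLFTest, two-sided, no covariate). P-values were adjusted over all tested genes. SE is the log2 fold change divided by the square root of F. Ratios of members had 0.5 counts added. Alternatives also used limma 3.58.1 and DESeq2 1.42.0. Plots used matplotlib 3.10.9. The scripts were tested on simulated data. The promoter motif is a textbook pattern, not taken from the study's files.

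Members, lists and tests were chosen with earlier results of these data known. Named were all members, 19 fixed partners, the largest called rise and fall of each list, genome neighbours, and the genes most alike in pattern. No replicate pairing was used.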

Additional observations from a re-analysis of the deposited data

Results flagged for a closer look

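In 7 of 95 groups of 4 libraries examined (CPM of the named genes, ratios and totals), the gap between 1 library and the nearest of the other 3 took up most of the group's range (Dixon's test at the 95% level). Chance gives about 4.75 of 95. DDX58 stood at 49.1 CPM in control replicate 2, against 54.4 to 55.1 CPM in its group, and DHX58 was at 5.85 CPM in ELAPOR1 replicate 2 against 4.75 to 4.90 CPM. In control replicate 3, PRKRA was at 42.8 CPM against 45.4 to 45.9 CPM (a gap at the critical value itself), MYD88 at 32.6 CPM against 35.0 to 35.5 CPM and IFNE at 1.98 CPM against 2.88 to 3.01 CPM. IRF7 was at 0.061 CPM in control replicate 4 and CXCL10 at 0.111 CPM in control replicate 1, each with no count in the other control libraries.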

How the results depend on the processing

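The 6 member calls held under 18 of 19 alternatives, with counts of 6 to 8 when each library was left out. Only testing against a 1.5-fold change departed from this, with 1 member, 2 pathway genes and 215 of all genes called. Leaving out each library gave 5557 to 6316 called genes and 28 to 34 pathway genes. Log2 fold changes over all alternatives were 0.71 to 0.80 for IFIH1, 0.45 to 0.55 for DDX58, 1.07 to 1.38 for AIM2 and 0.24 to 0.50 for DHX58. MAVS changed sign with total count scaling (0.0055) and without ELAPOR1 replicate 1 (0.0063), and ran from -0.037 to 0.0063 when each library was left out. Of 491 values of 26 other named genes, none changed sign, 16 lost and 6 gained a call.

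Leaving out each library gave differences of -0.30 to -0.19 for DDX58 to IFIH1 and 0.88 to 1.21 for AIM2 to IFI16. With the replicate number as a block (replicate block), 5926 genes and the same number of members, 6, were called. For the ratios, the mean of the paired differences equals the difference of the group means by arithmetic. Their values of -0.26, 0.78 and 1.05 therefore could not differ under pairing, and 4 pairs cannot give an exact permutation p below 0.125. Same-numbered libraries did not deviate together (r from -0.121 to 0.0313 over 10703 genes), so the numbers were not taken as pairs.

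Depth limits AIM2, DHX58 and TLR3 most, with 15 to 146 counts a library.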

Other observations

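The genes around the members on the chromosomes were read from the 5 tested genes on either side. Near AIM2 and IFI16 on chromosome 1, the median log2 fold change of the 10 neighbours was 0.24 for either gene, each counting the other among its neighbours. KIRREL1, an adhesion protein with a low level (mean 0.731 CPM in control and 5.82 CPM in ELAPOR1 libraries), was at 2.98 (edgeR adjusted p = 4.8e-13). The actin-binding protein TAGLN2 was at 1.27 (edgeR adjusted p = 1.0e-23). For comparison, IFI16 was at 0.20 and AIM2 at 1.23. The neighbours of AIM2 spanned 3100 kb, and 6 of the 10, IFI16 among them, were called higher and none lower. Of all tested genes, 22.6% were called higher. For the other members the median of the neighbours lay between -0.037 (MAVS) and 0.13 (IRF3). The part of these neighbourhoods in the change of the members was not tested.

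The genes whose log2(CPM + 1) followed a member most closely over the 8 libraries were GDE1, SUPT6H and NT5C2 for IFIH1 (Pearson r 0.997, 0.996 and 0.995), METTL1, DNAJB1 and PPP2R1B for TLR3 (0.986, 0.984 and 0.984) and SKIL, DBNDD1 and TGFBI for DDX58 (0.984, 0.983 and 0.983). These values share the difference between the groups and the same 8 libraries, and 580 of 10695 genes reached an r of 0.95 with IFIH1.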
